A study of Mus musculus with 6 samples.

Results

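The genes described here are 10 that encode parts of the basement membrane: the type IV collagen chains Col4a1 and Col4a2, the laminin chains Lama4, Lamb1, Lamb2 and Lamc1, the linkers Nid1 and Hspg2, and the collagens Col15a1 and Col18a1. They were taken by symbol from a table of 57180 mouse genes; all 10 passed the low-count filter, as did 23055 genes in all. The 10 genes were chosen by their measured difference between the groups, so the differences of these 10 genes between the groups are given as a description, without a test. RNA was sequenced from F4/80+CD11b+ macrophages sorted from white adipose tissue of mice labelled WT and kept on a high-fat diet. One group had the diet alone (HFD, 3 libraries), and the other had the diet and MGIG, magnesium isoglycyrrhizinate, a salt of a glycyrrhizin-derived saponin (HFD+MGIG, 3 libraries). Both groups therefore share the high-fat diet, and no lean or untreated group enters the comparison. The series addresses how MGIG acts against obesity. The sort is named in the design text, whereas the protocol in the labels speaks of RNA from tissue. The labels give no sex, age, dose, batch or strand, and do not say whether the 3 libraries of a group came from separate animals, so the spread between them may be technical.

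A basement membrane is a thin sheet of extracellular matrix under endothelium and epithelium and around single fat, muscle and Schwann cells. Laminins, trimers of an alpha, a beta and a gamma chain, assemble on integrins and dystroglycan at the cell surface, type IV collagen forms a covalently linked network beside them, and nidogen and the heparan sulfate proteoglycan perlecan join the layers. In adipose tissue these sheets surround adipocytes and capillaries; endothelial cells, pericytes, fibroblasts and adipocytes are known as their main makers, and macrophages lie close to them.

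Promoter sequence is shown for members whose results span the levels measured per kb of exon. They run from Nid1, with the highest mean in HFD, through Lamb1 and Hspg2, to Col15a1, with the lowest. Col4a1 and Col4a2 stand head to head on chromosome 8 and are read in opposite directions from 1 shared start region, so their common stretch is shown as well. All are RefSeq sequence or coordinates on GRCm38.p6, written 5′ to 3′ on the plus strand. They end before the first annotated exon, apart from the common stretch. That stretch runs from one annotated start to the other and lies in exons of both genes. Capitals mark matches to the GC box (GGGCGG or CCGCCC), the CCAAT box (CCAAT or ATTGG) and the ETS core (CCGGAA or TTCCGG).
Nid1, chr13:13437352-13437550: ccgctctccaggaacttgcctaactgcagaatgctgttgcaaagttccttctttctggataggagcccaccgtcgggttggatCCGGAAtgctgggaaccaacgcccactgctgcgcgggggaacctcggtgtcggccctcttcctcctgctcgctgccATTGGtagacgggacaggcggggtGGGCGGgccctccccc
Lamb1, chr12:31265043-31265233: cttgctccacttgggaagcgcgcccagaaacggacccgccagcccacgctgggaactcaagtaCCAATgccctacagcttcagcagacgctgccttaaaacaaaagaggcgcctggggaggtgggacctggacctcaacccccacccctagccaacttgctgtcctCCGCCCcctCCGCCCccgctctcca
Hspg2, chr4:137468553-137468768: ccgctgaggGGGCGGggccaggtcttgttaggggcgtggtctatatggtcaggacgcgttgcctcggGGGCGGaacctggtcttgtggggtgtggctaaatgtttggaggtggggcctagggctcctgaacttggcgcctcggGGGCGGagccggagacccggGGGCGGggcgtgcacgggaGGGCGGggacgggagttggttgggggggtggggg
Col15a1, chr4:47207762-47208011: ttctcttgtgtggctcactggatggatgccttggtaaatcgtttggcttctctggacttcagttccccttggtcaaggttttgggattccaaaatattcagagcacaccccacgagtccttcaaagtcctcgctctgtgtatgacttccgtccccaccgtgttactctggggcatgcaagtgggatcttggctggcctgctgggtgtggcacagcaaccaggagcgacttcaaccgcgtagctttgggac
Col4a1 and Col4a2, chr8:11312805-11312826: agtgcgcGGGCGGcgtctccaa
The stretch of Hspg2 holds 5 GC boxes, that of Lamb1 2 GC boxes and 1 CCAAT box, that of Nid1 1 of each of the 3 motifs, and that of Col15a1 none of them. RefSeq windows were matched for 8 of the 10 genes, with 9 windows in all since Col18a1 has 2 starts. Lama4 and Lamc1 had no entry. All the windows but that of Col15a1 reach into annotated exons. For Col4a1 and Col4a2 these are exons of the other gene. In the 250 bases before the start, read on both strands, the GC box stood in 5 of the 9 windows and in 32.7% of 32851 windows over all genes. The CCAAT box stood in 5 of 9 against 33.9% over all, the ETS core in 1 of 9 against 12.0%, and the TATA box (TATAAA or TTTATA) in 0 of 9 against 12.4%. GC content ran from 43.6% in the window of Lamb2 to 74.4% in that of Col4a1, around a median of 52.4% over all windows. A match is a description of letters, not of a bound site.

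Levels are given as CPM, counts scaled to a common library total, and per kb of exon where genes are compared with each other. Library totals ran from 14437605 to 16740417 counts for HFD; those of HFD+MGIG ran from 2214456 to 4904302. A set of 1598 genes came from families taken to be largely silent in macrophages (olfactory, vomeronasal and taste receptors, keratin-associated proteins and beta-defensins). These genes took 0.0624% to 0.28% of the counts of HFD libraries and 2.94% to 6.42% of those with MGIG. The 90th percentile of their CPM per kb, multiplied by the exon length of a gene, served as the background bound of that gene in a library. This matters for the present genes because they are long: their median exon length was 7242.5 bases, against 4366.5 over 16184 protein-coding genes tested, and their median number of exon blocks 41 against 9. HFD+MGIG 2 stood apart, with the smallest total, the highest background and macrophage markers at 41.2% of the HFD mean, and the lowest level in 8 of the 10 genes. It was also left out in turn. In bulk libraries, fewer cells of a type and less RNA per cell cannot be told apart.

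All 10 genes had lower CPM in each HFD+MGIG library than in any HFD library, with group means 1.88 to 6.37 times lower. Across all genes tested, 23.7% showed such a gap in the same direction. The summed CPM of the 10 genes was 1295, 1131 and 1214 in HFD and 368, 198 and 409 in HFD+MGIG, that is 16.3% to 33.7% of the HFD mean. In the edgeR quasi-likelihood fit all 10 had an adjusted p under 0.05 in the lower direction, where 17.8% of all genes tested and 25.0% of the protein-coding ones did. The contrast itself chose these genes, so nothing is read from that count. Their median log2 fold change (HFD+MGIG against HFD) was -2.15, beside 0.38 over all genes tested and -0.44 over protein-coding ones. Leaving out HFD+MGIG 2 gave a median of -1.86 with all 10 called, with values from -2.47 for Hspg2, -2.38 for Col4a1, -2.16 for Col4a2, -2.02 for Col18a1 and -1.98 for Lamb2 to -1.73 for Lamc1 and Col15a1, -1.63 for Nid1, -1.33 for Lama4 and -1.05 for Lamb1. Leaving out HFD 2, HFD 3 or HFD+MGIG 1 gave a count of 9, Col15a1 being the one lost. In these fits 11.0%, 9.18% and 19.4% of all genes tested were lower, and 22.2% without HFD+MGIG 2. Nothing is read from these counts either.

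**Figure D1:**
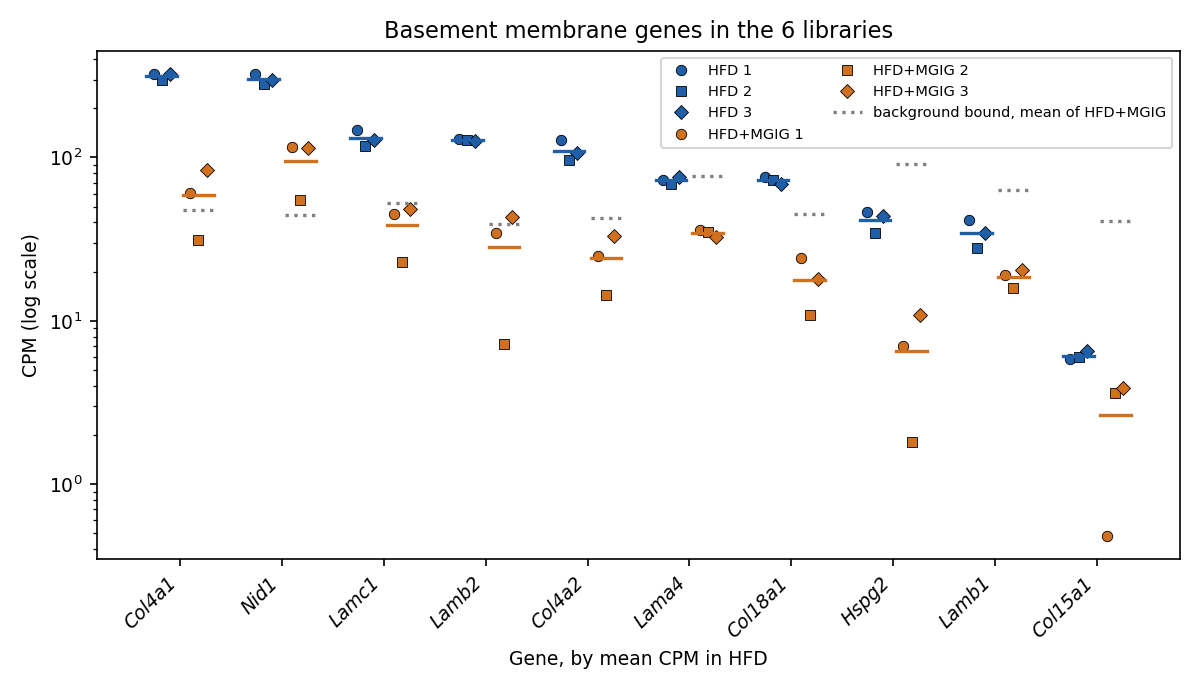
CPM (log scale) of the 10 genes in the 3 HFD (blue) and 3 HFD+MGIG (orange) libraries, with bars at group means and dotted grey lines at the mean background bound in HFD+MGIG. The groups do not overlap for any gene, and the orange mean lies above the dotted line for Col4a1 and Nid1 only.

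The level in HFD+MGIG has to be read against the background in those libraries. In HFD all 10 genes lay above their bound in every library. In HFD+MGIG the mean lay at or below the bound for 8 of 10, and above it for Col4a1 and Nid1. The same pair were the only members among 2606 protein-coding genes whose mean bound was at most 0.25 of their mean CPM over the 6 libraries, called genes with little background below. The limit uses the mean of both groups, so genes that are lower in HFD+MGIG can meet it through HFD: in HFD+MGIG alone the bound was 0.815 of the mean for Col4a1 and 0.467 for Nid1. The fit of this set, with scaling factors of its own, therefore gives values on another scale, not values free of background. There 6.25% of the set was called lower, both of these genes included, and nothing is read from that. In the fit over all genes, the genes with little background themselves had a median log2 fold change of -0.91, and in their own fit 0.03.

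Type IV collagen is made mainly as trimers of the Col4a1 and Col4a2 products. Col4a1 (mm10 chr8:11198423-11312826, minus strand, 54 exon blocks) measured 324, 298 and 323 CPM under HFD, against 60.7, 31.2 and 84.0 CPM with MGIG added. Every HFD library was at least 3.54 times above the highest HFD+MGIG library, HFD+MGIG 3. The means were 315 ± 14.97 and 58.6 ± 26.5 CPM (SD, n = 3 each), a log2 fold change of -2.70 (SE 0.48), and of -1.76 (SE 0.19) on the scale of the genes with little background. Col4a1 lay above its bound in 2 of 3 HFD+MGIG libraries, at 1.74 (HFD+MGIG 2) to 8.53 times the median background.

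Col4a2 (chr8:11312805-11449287, plus strand, 48 exon blocks) measured 127, 95.9 and 107 CPM across HFD and, with MGIG, 25.1, 14.5 and 33.2 CPM. The groups did not overlap, and HFD+MGIG 2, with 32 counts (95% Poisson interval 9.88 to 20.4 CPM, counting error only, as for the intervals that follow), was the lowest. Its log2 fold change was -2.44 (SE 0.39), while 1 HFD+MGIG library exceeded the bound. Exons of the pair overlap by 22 bases, 0.295% of the exon length of Col4a1, so reads shared between the strands could move little of either value. Per kb, Col4a1 exceeded Col4a2 by 2.25, 2.75 and 2.68 times in HFD and by 2.15, 1.91 and 2.24 times in HFD+MGIG. The HFD ratios all lay above the HFD+MGIG ratios, with HFD 1 and HFD+MGIG 3 almost equal. Summed, the collagen IV chains kept 10.7% to 27.6% of their HFD mean CPM, against 22.1% to 39.5% for the summed laminin chains. Those ranges overlap, and within each HFD+MGIG library the collagen value was the lower one.

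The laminin chains measured make up one alpha chain, Lama4, found in vessel and fat cell basement membranes, the beta chains Lamb1 and Lamb2, and Lamc1, the gamma chain of most laminins. Lamc1 (chr1:153218922-153332786, minus strand, 28 exon blocks) measured 147, 118 and 128 CPM without MGIG and 45.1, 23.0 and 48.3 CPM with it. HFD+MGIG 2 was the lowest and the groups were well apart. The log2 fold change was -2.02 (SE 0.40), with 2 HFD+MGIG libraries above the bound and the mean, 38.8 ± 13.8 CPM, below the mean bound of 53.0 CPM.

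Lamb2 (chr9:108479736-108490530, plus strand, 33 exon blocks) was the steadiest member in HFD, at 129.9, 128 and 127 CPM, a coefficient of variation of 1.20%. In HFD+MGIG it measured 34.5, 7.23 and 43.2 CPM, so that HFD+MGIG 2, with 16 counts (4.13 to 11.7 CPM), stood far under the other 2 libraries, which exceeded the bound. The log2 fold change was -2.41 (SE 0.54).

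Lamb1 (chr12:31265234-31329644, plus strand, 33 exon blocks) measured 41.6, 27.9 and 34.5 CPM under HFD, against 19.0, 15.8 and 20.6 CPM with MGIG added. It had the smallest gap of the 10 genes, the lowest HFD library being 1.36 times the highest HFD+MGIG library. The log2 fold change was -1.19 (SE 0.29). Lama4 (chr10:38965515-39110188, plus strand, 38 exon blocks) measured 72.7, 69.1 and 76.2 CPM across HFD and, with MGIG, 36.1, 34.8 and 32.6 CPM. It varied little within either group, and HFD+MGIG 2 did not stand apart in it. Its log2 fold change was -1.39 (SE 0.29). In HFD+MGIG all 3 libraries of both genes lay below the bound, Lamb1 at 0.664 to 1.57 and Lama4 at 1.20 to 2.27 times the median background. The part of background in them was not tested.

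Ratios among laminin chains, per kb, differed between the groups. Lamb2 exceeded Lamb1 by 5.10, 7.49 and 5.99 times in HFD, and by 2.95, 0.745 and 3.42 times in HFD+MGIG. The ranges were apart, and in HFD+MGIG 2 the order was turned. Lama4 per Lamc1 was 0.340, 0.401 and 0.408 in HFD and 0.550, 1.03 and 0.463 in HFD+MGIG, again without overlap. In HFD+MGIG 2 all 4 chains lay close to or under the median background, Lamb2 at 0.495, Lamb1 at 0.664, Lamc1 at 1.16 and Lama4 at 1.20 times it, so the ratios of that library rest on levels near background, and its Lamb2 on 16 counts. In HFD+MGIG 1 and 3, Lamb1 lay at 1.45 and 1.57 and Lama4 at 2.27 and 2.05 times it, so the ratios there are limited likewise. The beta chains summed per Lamc1 lay between 1.44 and 1.68 without MGIG and between 0.999 and 1.57 with it, ranges that overlap.

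Nid1 encodes nidogen, which bridges the laminin gamma chain and type IV collagen. Nid1 (chr13:13437551-13512269, plus strand, 20 exon blocks) measured 325, 281 and 299 CPM without MGIG and 116, 55.1 and 114 CPM with it. The lowest HFD library was 2.41 times the highest HFD+MGIG library, and HFD+MGIG 2 was again the lowest. The HFD mean of 302 ± 22.2 CPM stood against 95.2 ± 34.8 CPM with MGIG (SD, n = 3 each), a log2 fold change of -1.93 (SE 0.46), and -1.003 (SE 0.13) on the scale of genes with little background. At 3.31 to 12.7 times the median background, it stood farthest above it of the 10. Nid1 per Lamc1, the pair of chains that bind each other, was 2.64, 2.84 and 2.78 in HFD and 3.08, 2.85 and 2.82 in HFD+MGIG, per kb. These ratios differed little in size between groups whose levels differed by 3.17 and 3.37 times, and their ranges overlap.

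Hspg2 encodes perlecan, a large heparan sulfate proteoglycan that binds growth factors. Hspg2 (chr4:137468769-137570630, plus strand, 97 exon blocks, 14307 exon bases) measured 46.5, 34.4 and 44.0 CPM under HFD, against 6.99, 1.81 and 10.8 CPM with MGIG added. The groups did not overlap, and the log2 fold change of -2.85 (SE 0.46) was the farthest from 0 among the 10 genes. It rested on 29, 4 and 53 counts in HFD+MGIG, with an interval of 0.492 to 4.62 CPM in HFD+MGIG 2. All 3 libraries lay under the median background for a gene of that length, at 0.0526 to 0.572 times it, so that median does not act as a floor for every gene.

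Col18a1 and Col15a1 encode the multiplexins, collagens with heparan or chondroitin sulfate chains whose C-terminal fragments include endostatin. Col18a1 (chr10:77052178-77166548, minus strand, 44 exon blocks) measured 75.4, 73.2 and 68.5 CPM across HFD and, with MGIG, 24.1, 10.8 and 18.1 CPM. The groups were well apart, with HFD+MGIG 1 the highest of its group. Its log2 fold change was -2.29 (SE 0.37), and all 3 HFD+MGIG libraries lay below the bound. Col15a1 (chr4:47208161-47313167, plus strand, 46 exon blocks) was the weakest member, at 5.79, 6.03 and 6.52 CPM without MGIG and 0.482, 3.61 and 3.87 CPM with it. The latter stand for 2, 8 and 19 counts, and HFD+MGIG 1, not 2, was the lowest, with an interval of 0.0584 to 1.74 CPM. The log2 fold change was -1.57 (SE 0.62), and it was past the threshold under 6 of 14 alternative settings. The interval of HFD+MGIG 2 (1.56 to 7.12 CPM) took in the levels of all 3 HFD libraries.

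**Figure D2:**
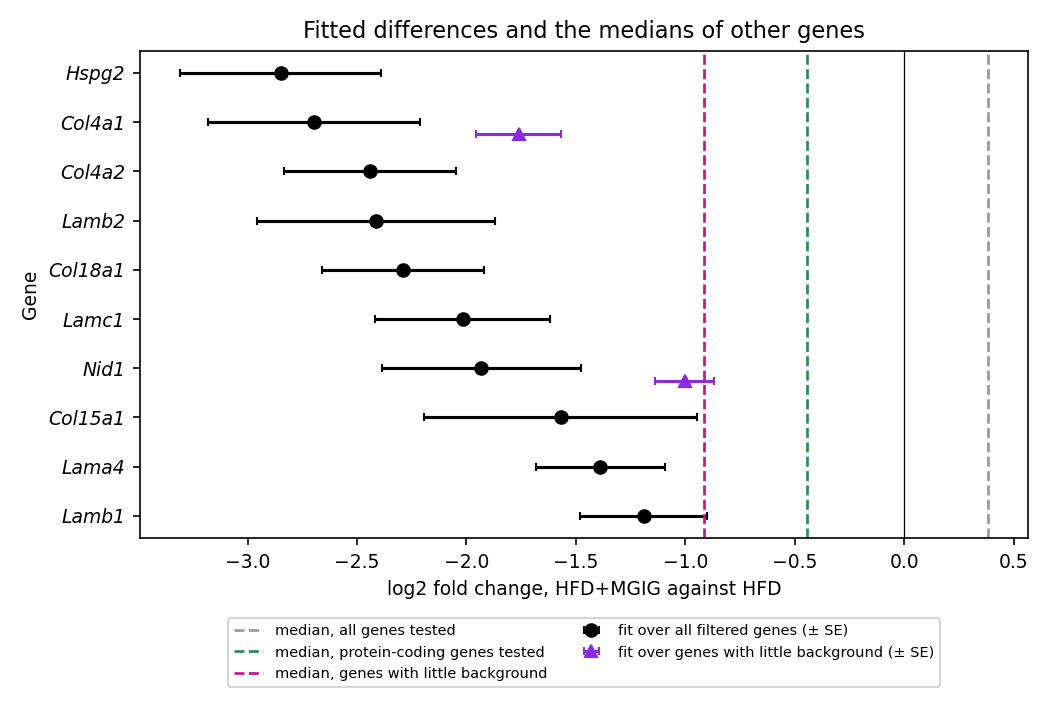
Log2 fold change (HFD+MGIG against HFD) of the 10 genes with SE bars, black for the fit over all filtered genes and purple for the fit over genes with little background; dashed lines give medians in the former. Black values run from -2.85 for Hspg2 to -1.19 for Lamb1; the purple values of Col4a1 and Nid1 are -1.76 and -1.003.

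Ranked per kb in HFD, Nid1 came first at 43.4 ± 3.20 CPM per kb, beside Col4a1 at 42.2 ± 2.01, and the ranges of that pair overlap. Lamb2 followed at 21.1 ± 0.253, then Col4a2 at 16.6 ± 2.41 and Lamc1 at 15.8 ± 1.77, which overlap each other. Col18a1 stood at 10.3 ± 0.504 and Lama4 at 6.02 ± 0.297, each apart from its neighbours. Lamb1 at 3.50 ± 0.689 and Hspg2 at 2.91 ± 0.446 overlap, and Col15a1 was last at 0.963 ± 0.0586 CPM per kb. Among protein-coding genes tested, Nid1 and Col4a1 reached percentiles 94.0 and 93.7 of the HFD level per kb, Lamb1 and Hspg2 52.3 and 48.6, and Col15a1 31.6. In HFD+MGIG the order again began with Nid1 at 13.7 and Col4a1 at 7.86 CPM per kb and ended with Hspg2 at 0.457 and Col15a1 at 0.418. There the ranges of all neighbours overlap except those of Lamb1 and Hspg2.

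The make-up of the set also differed. Type IV collagen held 36.0%, 35.6% and 36.6% of the CPM per kb of the 10 genes in HFD, and 24.5%, 25.5% and 29.9% in HFD+MGIG. Nid1 held 27.0%, 26.5% and 26.5% in HFD and 34.4%, 31.8% and 30.2% in HFD+MGIG. The laminin chains together held 28.4% to 28.8% in HFD and 32.6% to 33.8% in HFD+MGIG. In each of these 3 shares the groups do not overlap, type IV collagen being lower and Nid1 and laminin higher in HFD+MGIG. From HFD to HFD+MGIG, mean shares went from 3.70% to 7.55% for Lama4 and from 2.13% to 4.71% for Lamb1. They went from 9.70% to 11.0% for Lamc1 and from 13.0% to 9.82% for Lamb2. In HFD+MGIG, Lama4 and Lamb1 lay below the bound in all 3 libraries. The part of background in these shares was not tested.

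**Figure D3:**
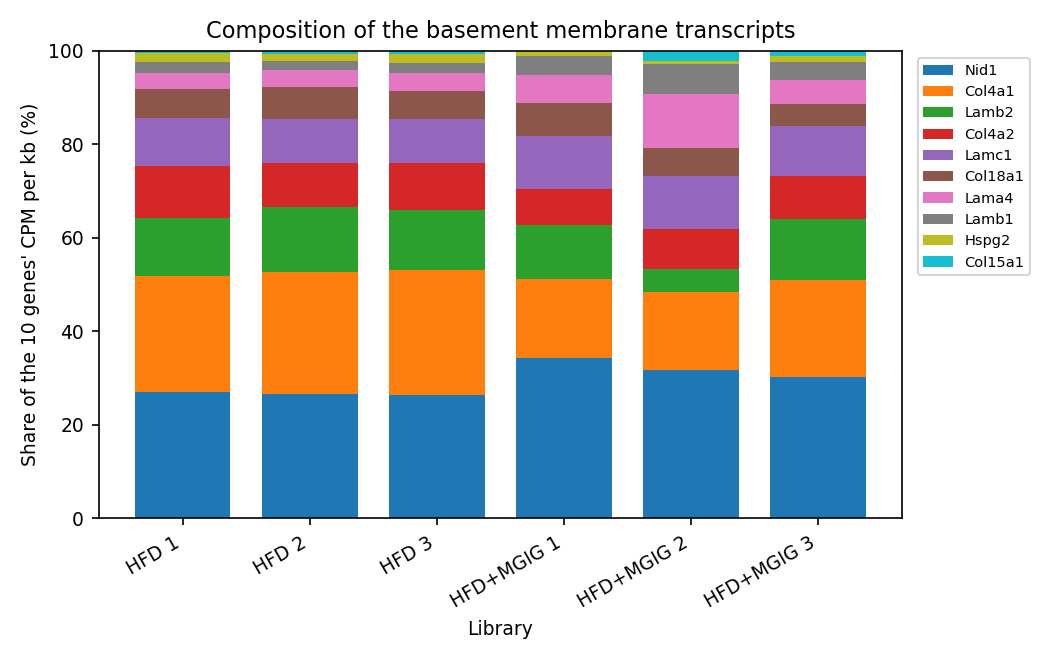
Share (%) of each gene in the summed CPM per kb of the 10 genes, stacked for each library. The blocks of Nid1 are wider in the HFD+MGIG bars (30.2% to 34.4%) than in the HFD bars (26.5% to 27.0%), and the block of Lamb2 is narrow in HFD+MGIG 2.

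Other genes of the basement membrane were read from 4 lists, with edgeR's quasi-likelihood test and Benjamini-Hochberg adjustment over all 23055 genes. Of 23 other structural genes, 21 were tested. Of these, 11 fell and 4 rose, where 17.8% of all genes tested fell and 42.9% rose. Of the protein-coding genes tested 25.0% fell. The median log2 fold change was -1.32, beside -0.91 for genes with little background in the same fit. Among the genes that fell was Fbln2, an elastic-fibre and basement membrane linker, at 337 ± 56.2 CPM in HFD and 60.6 ± 32.8 in HFD+MGIG (log2 fold change -2.74, adjusted p = 0.00114). Lama5, a laminin alpha chain of mature vessels, fell by 2.42 on the log2 scale (adjusted p = 0.000672) from 31.1 CPM. Nid2, the second nidogen, fell by 2.17 (adjusted p = 0.000422), from 34.6 ± 4.52 to 9.16 ± 3.89 CPM. Agrn, a proteoglycan that binds laminin, is another of the 11. The HFD+MGIG mean lay above the bound for 5 of the 23 structural genes, Fbln2 among them. It lay below for Lama5 (6.75 against 72.9 CPM), Nid2 (9.16 against 33.1 CPM) and Agrn (4.53 against 59.4 CPM). The part of background in these values was not tested.

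The 4 that rose were Col4a3 and Col4a4, collagen IV chains best known from kidney, Lamb3, a chain of skin laminin, and Hmcn1, a large matrix protein. Col4a4 measured 2.21, 0.831 and 0.932 CPM under HFD, against 3.61, 23.9 and 9.18 CPM with MGIG added. Hmcn1 measured 1.43 to 3.46 CPM across HFD and, with MGIG, 9.40 to 19.9 CPM. Both were highest in HFD+MGIG 2, the library with most background, and the HFD+MGIG means of all 4 genes lay under their bounds, for Col4a4 12.2 against 67.9 CPM. The part of background in their rise was not tested. Without HFD 3 the count of genes that rose was 2. Lamb3 lost its call when library 2 or 3 of either group was left out, and neither Lamb3 nor Col4a3 was called with all libraries thinned to the smallest total. Thinning left 6 structural genes lower and 1 higher of 18 tested; without HFD+MGIG 2 there were 13 lower and 3 higher.

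Of 13 receptors for laminin or collagen, 10 fell and 0 rose. Of all genes tested 17.8% fell, and of protein-coding ones 25.0%. The median log2 fold change of the receptors was -1.72. Without adjustment 1 rose at p under 0.05, and limma voom and DESeq2 called 1 each. Itga6, an integrin alpha chain that pairs with Itgb1 or Itgb4 to bind laminin, went from 90.4 ± 5.47 to 28.6 ± 3.36 CPM (adjusted p = 0.000309). Itga3, another laminin-binding alpha chain, fell by 2.30 on the log2 scale (adjusted p = 0.000252), and Itgb4, which links laminin to keratins in epithelium, by 2.28 (adjusted p = 0.000571). Bcam, a laminin alpha chain receptor of the immunoglobulin family, went from 150 ± 12.9 to 40.4 ± 24.9 CPM and Sdc1, a heparan sulfate proteoglycan of the cell surface, from 141 ± 30.1 to 36.6 ± 14.8 CPM. The HFD+MGIG mean lay above the bound for 4 of the 13 receptors, Bcam and Sdc1 among them. It lay below for Itga6 (28.6 against 57.8 CPM), Itga3 (5.87 against 36.6 CPM) and Itgb4 (5.49 against 44.9 CPM). The part of background in these values was not tested. The count that fell was 11 without HFD+MGIG 2 and 6 of 12 after thinning, where Itga3 lost its call (adjusted p = 0.0861). In the fit of genes with little background, Sdc4, a syndecan, rose with a log2 fold change of 0.65 (adjusted p = 0.0244). Sdc4 had -0.26 in the fit over all genes (adjusted p = 0.609), so its direction turns with the scaling.

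Of 18 genes for collagen folding, modification and cross-linking, 12 fell and 1 rose, where 17.8% of all genes tested and 25.0% of protein-coding ones fell. The median of the list was -1.10, beside -0.91 for genes with little background in the same fit. Serpinh1, the collagen chaperone HSP47, went from 155 ± 11.7 to 36.1 ± 16.5 CPM (log2 fold change -2.35, adjusted p = 0.000792). Pxdn, the peroxidase that forms the sulfilimine bonds of type IV collagen, fell by 2.05 on the log2 scale (adjusted p = 0.000231). The prolyl hydroxylases P3h3, P3h2 and P4ha2 fell by 1.57, 1.43 and 1.24. In this list the HFD+MGIG mean lay above the bound for 10 of 18 genes, Serpinh1 and P3h2 among them. It lay below for Pxdn (25.9 against 61.8 CPM), P3h3 (4.36 against 25.2 CPM) and P4ha2 (12.3 against 39.9 CPM). P4ha3, which rose, was at 0, 0.277 and 0 CPM in HFD and at 2.65, 6.77 and 4.08 CPM in HFD+MGIG, under its mean bound of 20.1 CPM. In the fit of genes with little background, 1 of 10 genes of this list fell, Serpinh1. The count of 12 became 15 without HFD+MGIG 2, 5 of 16 with a minimum of 5 CPM in 3 libraries and 2 of 15 after thinning, where P3h2 and P4ha2 lost their calls (adjusted p = 0.0998 and 0.260). It became 7 on leaving out HFD 1 or HFD 3, and 6 on leaving out HFD+MGIG 3.

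Of 10 genes for turnover, 5 fell, against 17.8% of all genes tested and 25.0% of protein-coding ones. Those that rose numbered 0, likewise 0 without adjustment, with limma voom and with DESeq2. The median was -0.93, almost that of genes with little background in the same fit, -0.91. Adamts1, a secreted protease of vessel walls that cleaves proteoglycans, went from 863 ± 91.8 to 207 ± 92.0 CPM (log2 fold change -2.34, adjusted p = 0.00274). Timp3, the protease inhibitor that binds to matrix, went from 888 ± 42.9 to 353 ± 128 CPM (adjusted p = 0.0154), and without HFD 3 its adjusted p was 0.0504. Mmp2 and Mmp14, a gelatinase and its membrane-bound activator, fell by 1.11 and 0.97, and Bmp1, the procollagen C-proteinase, by 0.77, on the log2 scale. The HFD+MGIG mean lay above the bound for 7 of the 10 genes. Among those named it lay below for Mmp14 (37.7 against 38.2 CPM) and Bmp1 (19.1 against 56.8 CPM). The count of 5 became 2 when HFD 1 or HFD+MGIG 3 was left out and 3 when HFD 2 or HFD 3 was; Mmp2, Mmp14 and Bmp1 each lost their call in several of these fits. After thinning it was 1 of 9, with an adjusted p of 0.0588 for Timp3, and it was 2 of 9 with the 5 CPM minimum. In the fit of genes with little background, 2 of 7 fell, Adamts1 and Timp3.

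**Figure D4:**
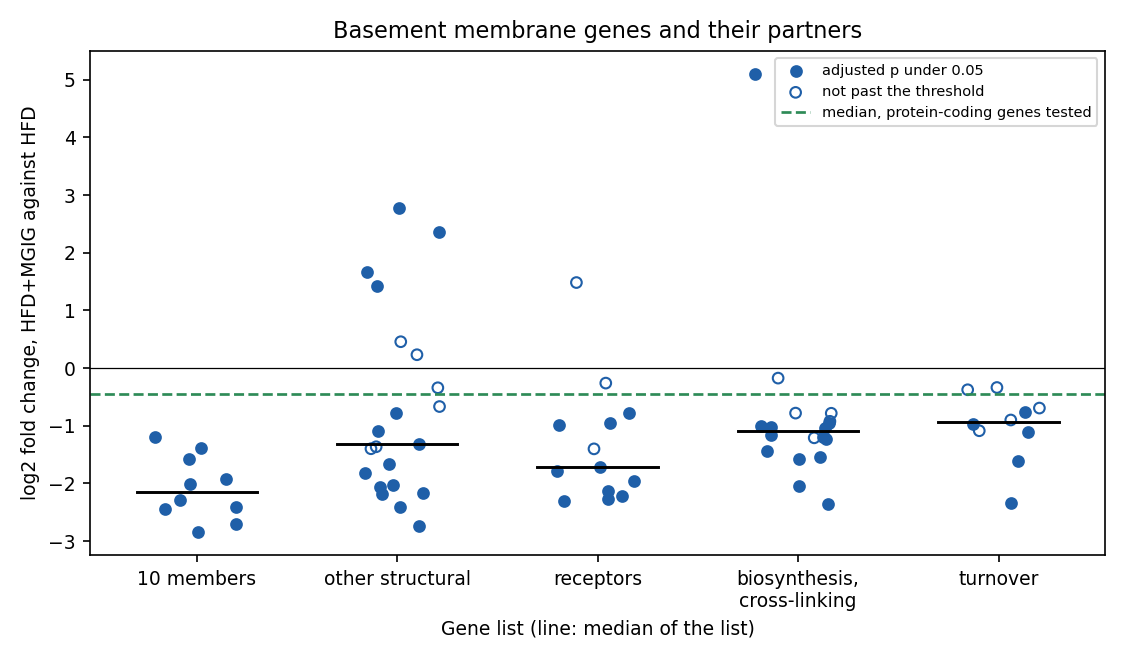
Log2 fold change of each tested gene in the 10-gene set and the 4 lists, filled where the adjusted p is under 0.05, with a line at each list's median; the sideways spread within a list has no meaning. Medians lie at -2.15, -1.32, -1.72, -1.10 and -0.93, and the dashed line marks the median of protein-coding genes, -0.44.

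Most markers of endothelial cells, pericytes and smooth muscle, fibroblasts and adipocytes were lower in the same libraries. Mesothelial markers, given further below, were not. All 14 endothelial markers fell (median log2 fold change -2.06). For this and the following marker lists, 17.8% of all genes tested and 25.0% of protein-coding ones fell. Their summed CPM lay between 3085 and 3498 for HFD and between 635 and 1213 with MGIG, which is 19.4% to 37.1% of the HFD mean. Pecam1, an endothelial adhesion molecule, measured 510.0 to 556 CPM without MGIG and 70.9 to 190 CPM with it, and Cdh5, the endothelial cadherin, 89.5 to 110 and 12.6 to 27.3 CPM.

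Of 10 pericyte and smooth muscle markers 8 fell, and their sum was 27.7% to 49.4% of the HFD mean in HFD+MGIG. Of 8 fibroblast markers 6 fell, with a sum of 41.5% to 62.7%, and Dcn, a fibroblast proteoglycan, had a log2 fold change of 0.03. Of 9 adipocyte markers 8 fell, with a sum of 34.2% to 49.4%. The HFD+MGIG mean lay above the bound for 5 of 10 pericyte and smooth muscle, 7 of 8 fibroblast and 6 of 9 adipocyte markers. Median log2 fold changes were -1.56 for pericyte and smooth muscle, -1.09 for fibroblast and -1.67 for adipocyte markers. Genes with little background had a median of -0.91 in the same fit. The count of 6 fibroblast markers was 3 without HFD 1 and 3 without HFD+MGIG 3, and that of 8 adipocyte markers was 5 without HFD 3. In these lists no defining marker was at 0 in any library. In the fit of genes with little background, markers called lower were 8 of 9 endothelial, 2 of 5 pericyte and smooth muscle, 3 of 6 fibroblast and 1 of 5 adipocyte ones. Of that whole set 6.25% was called lower. Most of the endothelial and fibroblast markers in it, 7 of 9 and 5 of 6, exceeded the limit of 0.25 when HFD+MGIG was taken alone. Dcn had 1.08 there (adjusted p = 0.0768).

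Of 11 macrophage markers 0 were called in either direction by edgeR. Without adjustment 2 were lower at p under 0.05. DESeq2 called 3 lower, limma voom 5, and edgeR 5 once HFD+MGIG 2 was left out. In the fit of genes with little background, which holds all 11, 0 were called, with 4 higher and 0 lower without adjustment. The median log2 fold change was 0.28 there and -0.62 in the fit over all genes, so the direction turns with the scaling. Their sum lay between 14924 and 17078 CPM for HFD and between 6538 and 16773 CPM with MGIG. Adgre1, which encodes F4/80, measured 468 to 546 CPM under HFD, against 135 to 387 CPM with MGIG added, and Itgam, which encodes CD11b, 200 to 316 and 38.8 to 167 CPM. The sorted markers were thus present in all 6 libraries, beside endothelial, mural, fibroblast and adipocyte transcripts that do not belong to the sorted cells by name. Of 3 mesothelial markers tested 2 were higher, with the list's sum at 1.39 to 4.002 CPM across HFD and, with MGIG, 13.0 to 46.5 CPM. All HFD+MGIG means of the mesothelial markers lay under their bounds.

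In HFD+MGIG the mean summed CPM of the 10 genes was 26.8% of their HFD mean. It was 30.4% for endothelial, 39.5% for adipocyte and 40.5% for pericyte and smooth muscle markers. For fibroblast and macrophage markers it was 50.7% and 79.3%. The 10 genes were chosen by their group difference, so they lie nearer to lists that fell. Nothing is read from that nearness. The summed CPM of the 10 genes was 0.399, 0.323 and 0.393 of the endothelial sum in HFD and 0.323, 0.311 and 0.337 of it in HFD+MGIG, ranges that overlap. Against the macrophage sum it was 0.0868, 0.0727 and 0.0711 in HFD and 0.0220, 0.0303 and 0.0284 in HFD+MGIG, with no overlap. The part that the number of endothelial or other non-macrophage cells had in the levels of the 10 genes was not tested.

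**Figure D5:**
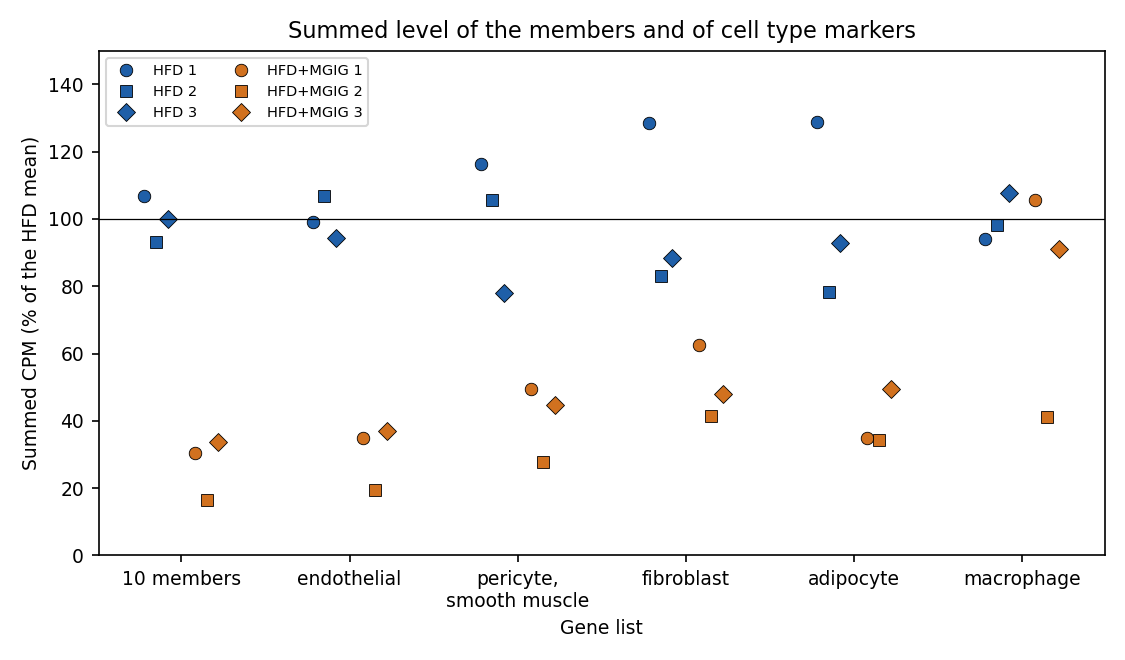
Summed CPM of the 10 genes and of 5 marker lists in each library, as % of the HFD mean of that list, with a line at 100%. The 10 genes lie at 16.3% to 33.7% and the endothelial markers at 19.4% to 37.1% in HFD+MGIG, while macrophage markers lie at 90.9% and 105.8% in HFD+MGIG 3 and 1 and at 41.2% in HFD+MGIG 2.

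How alike the 10 genes were among themselves was measured as the root mean square (RMS) difference between a gene's log2 CPM profile over the 6 libraries, centred to 0, and the mean profile of the 10. Lamc1 lay nearest, at 0.119, followed by Nid1 at 0.169, Col4a2 at 0.170, Col18a1 at 0.255 and Col4a1 at 0.321. Lama4, Lamb1 and Lamb2 lay at 0.549 to 0.583, Hspg2 at 0.647 and Col15a1 at 0.957. Each of the 10 is part of that mean, and they were chosen by their group difference, so their nearness to it is partly set beforehand. Among 9078 other protein-coding genes with at least 10 CPM in HFD, the median RMS difference was 0.744 and the 5th percentile 0.384. From 0.0220% (Lamc1) to 2.71% (Col4a1) of these lay closer than the 5 nearest members. For Lama4, Lamb1, Lamb2, Hspg2 and Col15a1 the shares were 19.1%, 21.5%, 23.5%, 33.6% and 75.4%. By the same measure the 8 closest of these were Mall at 0.108, Tinagl1 at 0.110, Akap2 at 0.123, Tmem182 at 0.128, Bmp6 at 0.129, Ablim3 at 0.133, Cdc42ep1 at 0.145 and Amotl2 at 0.146. Tinagl1 encodes a matrix protein of basement membranes and is one of the other structural genes above. It measured 261, 228 and 213 CPM without MGIG and 76.6, 42.9 and 88.1 CPM with it. Bmp6, a secreted signal of the TGF-beta family, measured 21.8 to 28.4 CPM under HFD, against 3.61 to 9.58 CPM with MGIG added. The libraries of a group share depth and background, and likeness over 6 libraries says nothing of shared function.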

How the data were processed

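The authors deposited a table with an estimated count for each gene in the 6 libraries, some of them fractional. Per the labels' protocols, total RNA came from a TRIzol extraction, and a SMART-Seq v4 low-input kit turned 10 ng of it into each library. Per the submitters' processing notes, fastp, HISAT2, StringTie and the build mm10 were used; the sources used here do not give their versions, their roles or the program that counted. Estimated counts were rounded to the nearest whole number before fitting; 0 columns were unused. GENCODE M21 (mm10) gave symbol, position and exon length for 51884 of 57180 genes; promoters came from RefSeq.

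Groups were compared by the quasi-likelihood test of edgeR 4.0.16 in R 4.3.3 (no term but group, filterByExpr, TMM factors), adjusted by Benjamini-Hochberg, with a threshold of 0.05. SEs are the log2 fold change divided by the root of its F statistic. Genes with little background are protein-coding, outside the silent families, with at least 2 exon blocks. Alternatives were RLE factors, library totals, no filter, at least 5 CPM in 3 libraries, and DESeq2 1.42.0. Others were limma voom with quality weights for the libraries (limma 3.58.1, called voom or limma voom elsewhere), a replicate block and thinning to 2214456 counts. Each library was also left out. The last were the fits of genes with little background, with and without subtraction of median background.

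The genes and lists were chosen with earlier results of these data known. Named were all 10 genes, per list the 5 largest called changes where the higher group reached 10 CPM, list counts of 5 or fewer, 2 markers per cell type, and the 8 closest profiles (prior count 2). Agrn and Sdc4 were named outside that rule after their values were seen, and some of the genes it takes are given only within counts. Results for Schwann cell markers as a list are not reported here.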

Additional observations from a re-analysis of the deposited data

How the results depend on the processing

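The direction of all 10 genes was the same under every alternative run, and 135 of 144 values for single genes also kept their side of the threshold. The exceptions were Col15a1, with log2 fold changes of -2.09 to -0.94 over 14 alternatives, and Lama4 after thinning, at -0.66 (edgeR adjusted p = 0.161). The fit of genes with little background covered 2 of the 10, Col4a1 and Nid1, which enter it through HFD: 2 were called lower with a median of -1.38, and 2 with -1.57 after median background was subtracted. Of the whole set, 6.25% and 4.37% were lower in these fits. These values are no check free of background. Over all settings the median log2 fold change of genes with little background ran from -1.19 to 0.03.

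Counts moved in the 4 lists; the cause was not tested. Receptors called higher were 1 with RLE factors, 1 with library totals, 1 with DESeq2, 1 with voom and 1 with the replicate block. Turnover genes called lower were 3 with library totals, 2 with the 5 CPM filter, 8 with voom and 1 after thinning. Collagen biosynthesis genes called lower were 5 and those called higher 0 with the 5 CPM filter, and 2 and 0 after thinning. Thinning also left 6 other structural genes lower and 1 higher, and 6 receptors lower. With one library left out, the ranges were 2 to 6 for turnover lower, 6 to 15 for biosynthesis lower, 2 to 4 for other structural higher and 0 to 1 for receptors higher.

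Marker counts moved too; their alternatives, and those of single genes outside the 10, were chosen after seeing the data. Macrophage markers called lower were 2 with no filter, 3 with DESeq2, 5 with voom and 1 with the replicate block, and 0 to 5 with one library left out. Fibroblast markers called lower were 3 with the 5 CPM filter and 3 after thinning (3 to 7 with one library left out). Thinning left 5 pericyte and 4 adipocyte markers lower (5 to 8 for adipocyte with one library left out). Dcn, not called in any fit, turned sign to -0.16 with no filter and -0.014 with voom and ran from -0.26 to 0.28 with one library left out, and it had 1.08 in the fit of genes with little background; Sox10 turned to 0.21 with voom.

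Same-numbered libraries deviated together with correlations of 0.0480, 0.260 and 0.0792 across genes, so the numbers were not taken to pair the samples. With the replicate number as a block, 4312 genes (18.7%) were lower and 9833 higher, against 4113 (17.8%) and 9902 without it. The median of the 10 genes was -2.25 with the block, all 10 called. Only HFD 2 and HFD+MGIG 2 correlated best with their own number. Genes lower numbered 2426 with library totals, 1574 with the 5 CPM filter, 6890 with voom, 754 after thinning and 2122 to 5563 with one library left out. Genes higher numbered 18253 with no filter, 4582 with the 5 CPM filter and 4128 after thinning. In HFD+MGIG, Col15a1 rests on 2 to 19 counts and Hspg2 on 4 to 53.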
